A study of Mus musculus with 12 samples.

Results

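Proprotein convertases are secretory-pathway proteases that cut precursor proteins into their active forms. The genes described here were Pcsk6 and 7 relatives, Furin, Pcsk1, Pcsk2, Pcsk5, Pcsk7, Pcsk1n and Mbtps1. They were taken by gene symbol from the deposited tables, where all 8 were found among 56748 entries of the scaled count table. Pcsk6 was chosen by its measured values, which were higher in Abca4Ko than in control rod TRAP, so its own genotype difference is given as a description with no test. The relatives were then compared with it.

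Most convertases cut after paired basic residues, and they differ in where they act. Furin, PCSK5, PCSK6 (also known as PACE4) and PCSK7 work in the trans-Golgi network, at the cell surface or outside the cell, and ligands of the TGF-beta family are among their known substrates. PCSK1 and PCSK2 act in the dense-core granules of neurons and endocrine cells, where neuropeptides are made from their precursors. The product of Pcsk1n, proSAAS, is an inhibitor of PCSK1, and Mbtps1 encodes the site-1 protease, which cuts the SREBP and ATF6 precursors in the Golgi.

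The study asked what deletion of Abca4, the flippase that clears retinal derivatives from rod discs, does to retina and rods. All mice were 2 months old and carried RiboTag, an allele for a tagged ribosomal protein, and i75-Rod-Cre, in which a rod promoter drives Cre so that the tag is made in rods. Control mice were RiboTag;i75-Rod-Cre littermates, and Abca4Ko mice were RiboTag; Abca4-/-;i75-Rod-Cre. After cycloheximide perfusion, RNA was taken from whole lysate, here called retina, and from pulled-down tagged ribosomes, here called rod TRAP, giving 3 libraries in each of 4 groups.

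Scaled totals were between 17096515 and 17097707 in rod TRAP and between 17860761 and 17862326 in retina, since the authors had brought the libraries of a fraction to one total. Abca4 itself was at 0.349% and 0.653% of the control mean in Abca4Ko rod TRAP replicates 1 and 2, and at 23.5% in the library labelled Abca4Ko replicate 3. In retina the corresponding values were 0.400%, 0.958% and 21.3%. The libraries labelled Abca4Ko replicate 3 thus go against their label in part. The values of Pcsk6 and the calls between genotypes are given with and without them. The rod marker list (20 genes) was higher in rod TRAP than in retina for 20 of 20 genes in both genotypes, where 36.6% of all genes tested were called higher in control and 30.4% in Abca4Ko mice. Nothing in the sources says whether the libraries came from separate animals, so p-values measure the spread between these libraries.

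The start regions of Pcsk6 and Pcsk2 are shown because these were the genes of the family whose rod TRAP libraries did not overlap between genotypes. Each runs from 250 bases before to 50 bases after the RefSeq start on build GRCm38.p6. Capitals mark GGGCGG on either strand (CCGCCC on the other), the core of the GC box, with overlapping matches run together.
Pcsk6, chr7:65861886-65862185, plus strand: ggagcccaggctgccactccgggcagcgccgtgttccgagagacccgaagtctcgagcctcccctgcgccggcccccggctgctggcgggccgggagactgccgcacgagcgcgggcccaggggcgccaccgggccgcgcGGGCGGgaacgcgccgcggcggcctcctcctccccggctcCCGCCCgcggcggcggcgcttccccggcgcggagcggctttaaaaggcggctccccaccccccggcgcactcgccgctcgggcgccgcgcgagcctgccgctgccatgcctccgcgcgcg
Pcsk2, chr2:143545883-143546182, plus strand: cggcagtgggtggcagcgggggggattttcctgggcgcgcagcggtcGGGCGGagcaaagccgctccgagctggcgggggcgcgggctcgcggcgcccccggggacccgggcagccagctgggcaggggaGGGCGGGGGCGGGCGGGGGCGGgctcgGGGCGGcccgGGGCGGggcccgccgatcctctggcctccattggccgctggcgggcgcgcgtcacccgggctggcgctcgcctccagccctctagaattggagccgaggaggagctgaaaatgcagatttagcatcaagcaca

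The Pcsk6 region was 81.7% G and C with 52 CpG, and it held 2 matches to GGGCGG. The Pcsk2 region was 76.3% G and C with 36 CpG and held 7 matches. The median G and C content over 32851 start regions of this length was 52.7%, and 35.7% of them held the motif on one strand or the other. TAATCC, the motif bound by the photoreceptor factor CRX, was absent from both windows and present in 7.06% of all of them. Pcsk6 and its 7 relatives were matched by symbol to 9 RefSeq start regions, Furin having 2.

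Levels are first given as TPM, a scale that corrects for transcript length and allows genes to be set side by side. In control rod TRAP, Mbtps1 stood at 72.6 ± 5.94 TPM (SD, n = 3) and Pcsk1n at 60.6 ± 5.83. Furin was at 18.7 ± 1.01 TPM there, Pcsk7 at 10.0 ± 1.5 and Pcsk2 at 3.13 ± 1.01. The ranges of neighbours in that order did not overlap down to Pcsk2. Pcsk6 came next at 0.167 ± 0.0577 TPM, and its range overlapped with those of Pcsk1 and Pcsk5, each at 0.0333.

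In Abca4Ko rod TRAP the order changed at a single place. Pcsk6 stood at 7.1 ± 2.75 TPM, its range overlapping with that of Pcsk7 at 10.7 ± 1.29 and lying above that of Pcsk2 at 0.9 ± 0.265. Without replicate 3 the mean of Pcsk6 was 5.6 TPM and that of Pcsk2 0.8 TPM. Mbtps1 (78.8 ± 10.7 TPM) and Pcsk1n (78.1 ± 16.7) overlapped at the top, and Furin was at 18.7 ± 4.29. Pcsk1 and Pcsk5 were again at 0.0333 TPM.

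In control retina Pcsk1n led with 106.3 ± 17.4 TPM, followed by Mbtps1 with 81.7 ± 5.42 and Furin with 32.2 ± 3.31. Pcsk2 (14.4 ± 2.89), Pcsk7 (13.0 ± 2.05) and Pcsk6 (12.0 ± 3.70) overlapped with one another. Pcsk1 at 1.03 ± 0.404 and Pcsk5 at 0.733 ± 0.208 were lowest. Abca4Ko retina had the same order, from 133.7 ± 16.8 TPM for Pcsk1n to 1.1 ± 0.265 for Pcsk5, with Pcsk6 at 7.9 ± 2.84.

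**Figure D1:**
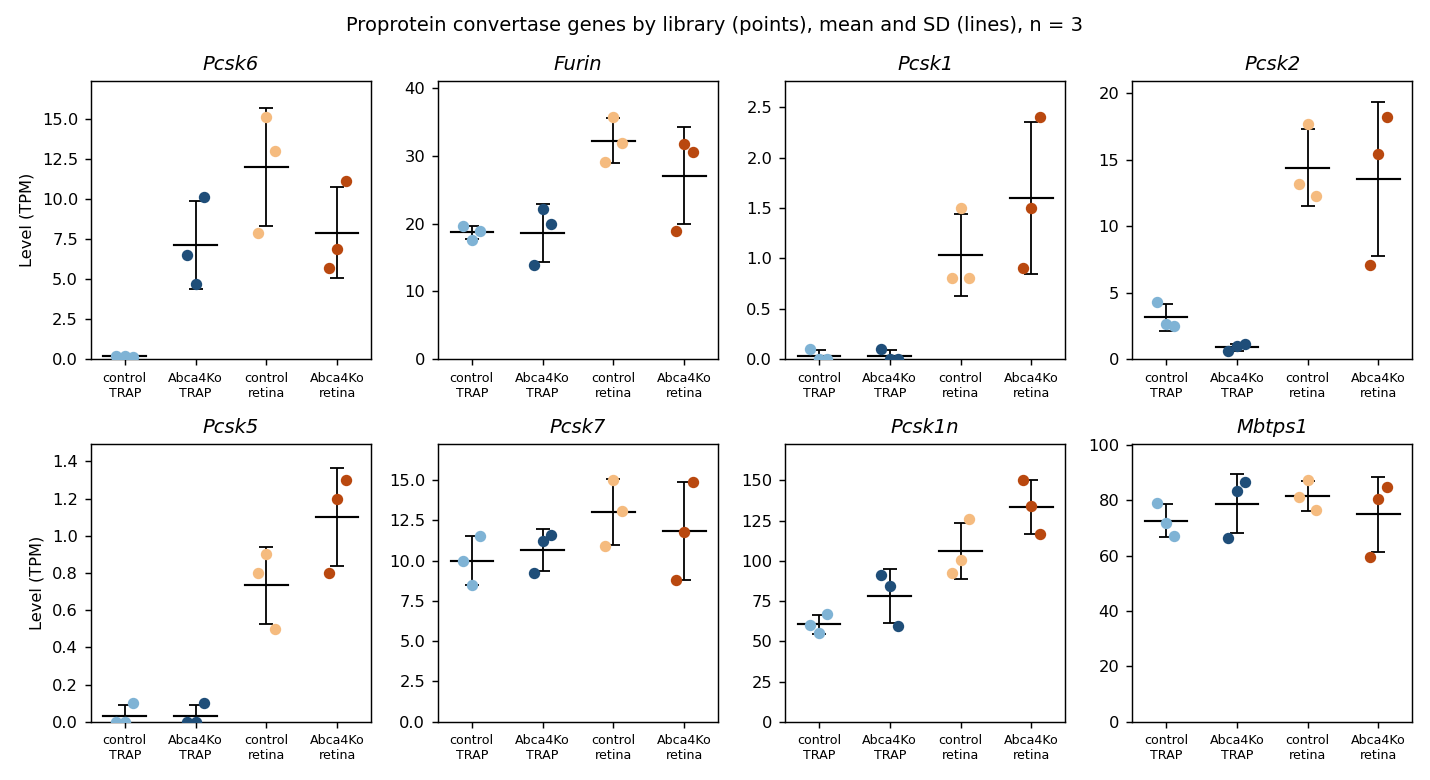
Level of each convertase gene (TPM, linear axes that start at 0) in the 12 libraries; points are libraries and lines are the mean and SD of 3 libraries. Pcsk6 went from 0.167 TPM in control rod TRAP to 7.1 TPM in Abca4Ko rod TRAP, and Pcsk2 from 3.13 to 0.9 TPM.

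The makeup of the family followed from these levels. Of the summed TPM of the 7 protease genes, Pcsk6 held 0.158% ± 0.0519 in control rod TRAP and 6.12% ± 2.05 in Abca4Ko rod TRAP (SD, n = 3), or 5.28% without replicate 3. Its share was 7.66% ± 1.88 in control retina and 5.68% ± 1.09 in Abca4Ko retina. Mbtps1 was the main protease message everywhere, with mean shares of 69.3% and 67.9% in control and Abca4Ko rod TRAP and of 52.8% and 54.8% in the retinas. The share of Pcsk2 was 2.96% ± 0.731 in control and 0.763% ± 0.125 in Abca4Ko rod TRAP.

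**Figure D2:**
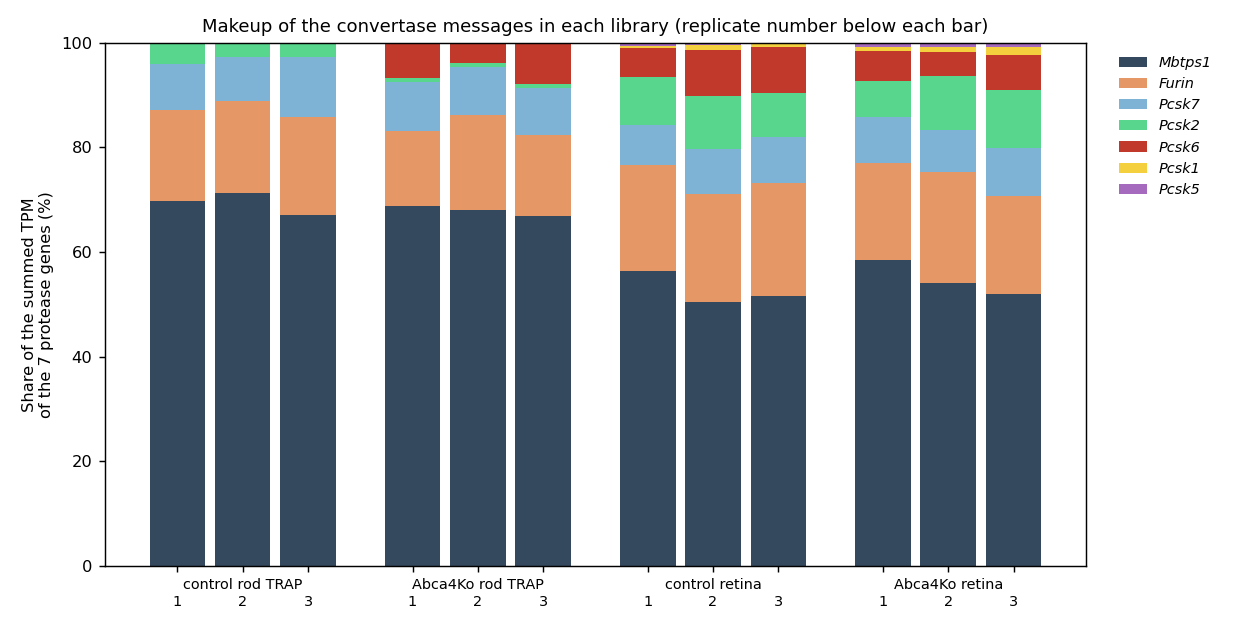
Share (%) of each of the 7 protease genes in their summed TPM, 1 bar per library, with replicate numbers below. Pcsk6 held a mean of 0.158% in control rod TRAP, 6.12% in Abca4Ko rod TRAP and 7.66% in control retina.

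Between libraries, 1 gene at a time was compared on CPM, the scaled counts divided by the library total after trimmed-mean scaling over all 12 libraries. Pcsk6 was at 0.429, 0.429 and 0.284 CPM in control rod TRAP, from 6, 6 and 4 scaled counts. In Abca4Ko rod TRAP it was at 18.2, 11.9 and 20.7 CPM, from 255, 170 and 298 scaled counts. All 3 Abca4Ko libraries were above all control libraries, including the library labelled replicate 3. The fitted log2 difference was 4.14 (SE 0.22), a value that depends on the offset for so low a gene and ran from 2.74 to 5.09 over 13 alternatives. Without Abca4Ko replicate 3, and with the filter set to 2 libraries, it was 3.99 (SE 0.26). On summed scaled counts, control rod TRAP held 2.21% of the Abca4Ko value.

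In retina Pcsk6 was at 18.7, 26.9 and 27.5 CPM in control and at 14.7, 14.3 and 19.9 CPM in Abca4Ko libraries. The groups overlapped, and the log2 difference was -0.56 (SE 0.22), the opposite direction to that in rod TRAP (-0.72 without Abca4Ko replicate 3). The interaction, the rod TRAP difference less the retina difference, was 4.83 (SE 0.32), and 4.81 without replicate 3 of Abca4Ko in both fractions. In such bulk samples fewer cells of a type and less RNA per cell cannot be told apart.

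Of the 7 relatives, 5 passed the filter in rod TRAP (at least 10 scaled counts in at least 3 libraries), and 1, Pcsk2, changed between genotypes. Over all 13104 genes tested, 1.09% were called, by limma at a Benjamini-Hochberg adjusted p under 0.05, 0.717% as higher and 0.374% as lower. The median log2 difference of the 5 was 0.15, against 0.000457 over all genes. Pcsk1 and Pcsk5 had at most 4 scaled counts in any rod TRAP library and were not tested.

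Pcsk2, the granule convertase that with PCSK1 makes neuropeptides, fell in Abca4Ko rod TRAP. It was at 12.2, 7.93 and 6.89 CPM in control and at 2.15, 3.07 and 3.19 CPM in Abca4Ko libraries. Every Abca4Ko library was below every control library, as in 17.8% of genes tested that did not overlap in either direction. The log2 difference was -1.45 (SE 0.22, limma adjusted p = 0.0120), and -1.52 (adjusted p = 0.0108) without Abca4Ko replicate 3. The call was lost without control replicate 1 (-1.22, adjusted p = 0.0659) and without control replicate 2 (-1.52, adjusted p = 0.0755). It was also lost on log2(TPM + 1), at -1.10 with adjusted p = 0.143.

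The 4 other tested relatives did not pass. Furin, the ubiquitous trans-Golgi enzyme, was at 48.8, 47.6 and 49.9 CPM in control and 40.9, 55.2 and 50.7 CPM in Abca4Ko rod TRAP, a log2 difference of 0.02 (SE 0.10, limma adjusted p = 0.958). Pcsk7 was at 22.5, 19.0 and 25.2 CPM against 23.2, 24.6 and 24.7 CPM (0.15, SE 0.12, adjusted p = 0.718). Both pairs of groups overlapped. Rnf214 overlaps Pcsk7 on the opposite strand with 560 to 805 scaled counts in rod TRAP libraries, and since counting by strand is not stated, reads of the pair may be mixed.

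Mbtps1 was at 187, 180.4 and 166 CPM in control and 180.0, 199 and 202 CPM in Abca4Ko rod TRAP, a log2 difference of 0.15 (SE 0.08, limma adjusted p = 0.551). Pcsk1n was at 77.6, 71.5 and 87.2 CPM in control and 132, 108 and 75.1 CPM in Abca4Ko libraries. Here replicate 3 alone lay within the control range. The log2 difference of Pcsk1n was 0.41 (SE 0.19, adjusted p = 0.520), and 0.64 (adjusted p = 0.0413) without Abca4Ko replicate 3.

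In retina all 7 relatives passed the filter and 0 changed between genotypes by limma, where 0.106% of 16964 genes were called (0.0884% as higher, 0.0177% as lower) and 2034 had an unadjusted p under 0.05. Pcsk5 was the single relative with such a p (0.0138). It was at 2.92, 3.03 and 2.41 CPM in control and 4.59, 4.61 and 4.31 CPM in Abca4Ko retina, with no overlap (log2 difference 0.63, SE 0.21, limma adjusted p = 0.400). Furin and Mbtps1 did not overlap on CPM either, both with lower values in Abca4Ko, against 19.7% of all genes tested. On the scaled counts as deposited, a scale added after the data were seen, Furin overlapped and Pcsk5 and Mbtps1 did not, against 17% of all genes.

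Furin was at 69.5, 70.3 and 76.9 CPM in control and 53.5, 68.2 and 58.8 CPM in Abca4Ko retina (log2 difference -0.26, SE 0.16, limma adjusted p = 0.485). Mbtps1 was at 169, 159 and 169 CPM against 149, 154 and 144 CPM (-0.14, SE 0.15, adjusted p = 0.656). The shifts were small beside those seen for Pcsk6 in rod TRAP. Pcsk2 was at 33.0, 35.6 and 30.7 CPM in control retina and 21.3, 34.3 and 36.2 CPM in Abca4Ko retina (-0.14, SE 0.22, adjusted p = 0.776).

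Pcsk1n was at 108, 98.1 and 146 CPM in control and at 209.8, 141 and 109 CPM in Abca4Ko retina, with overlapping groups. Its log2 difference was 0.36 (SE 0.25, limma adjusted p = 0.526). Pcsk1, with 51 to 136 scaled counts in a retina library, gave 0.51 (SE 0.27, adjusted p = 0.443), and Pcsk7 gave -0.19 (SE 0.17, adjusted p = 0.624).

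**Figure D3:**
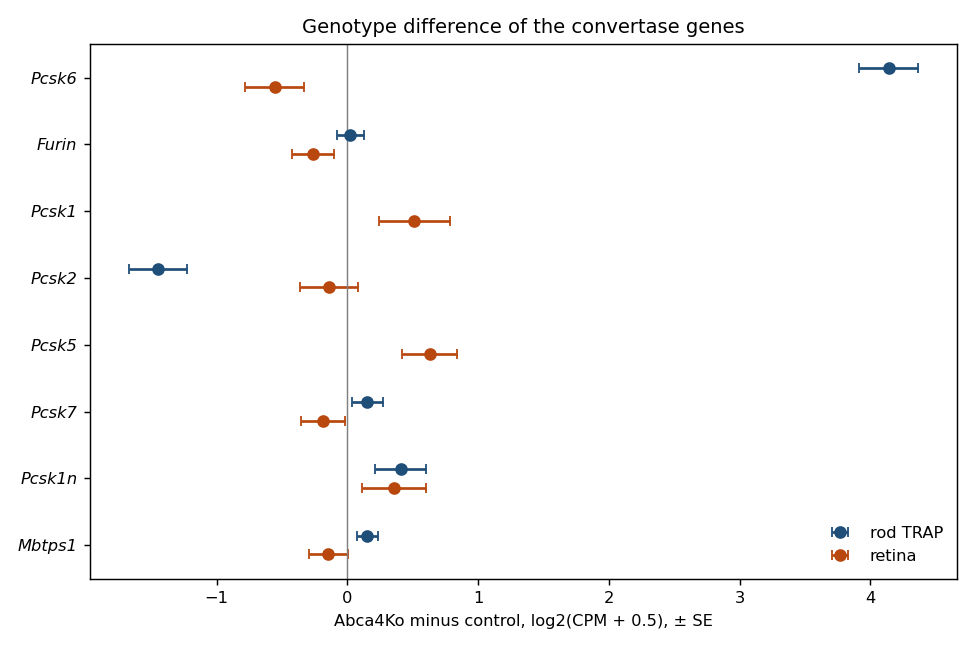
Abca4Ko minus control difference on the log2(CPM + 0.5) scale for each convertase gene in rod TRAP and in retina, with moderated SE, 3 against 3 libraries; Pcsk1 and Pcsk5 were not tested in rod TRAP. Pcsk6 stood at 4.14 in rod TRAP and -0.56 in retina, and Pcsk2 at -1.45 and -0.14.

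Whether the genotype difference itself differed between fractions was tested with the interaction term over 12 libraries. None of the 7 relatives was called (0 of 7 by limma). Over 17273 genes 0.00579% were, 1 gene in all, and 1952 had an unadjusted p under 0.05. The 1 gene called was Pcsk6, which was chosen by its values, so the call is no test of it, and no other gene was called. For Pcsk2 the term was -1.36 (SE 0.33, limma adjusted p = 0.407), so that a fall in rod TRAP beyond that in retina was not established. The replicate numbers pair rod TRAP and retina libraries, and with that block the adjusted p of Pcsk2 was 0.0658. The other relatives lay between -0.65 and 0.32.

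The fractions were compared within each genotype. In control mice 5 of 7 relatives, Furin, Pcsk1, Pcsk2, Pcsk5 and Pcsk1n, were lower in rod TRAP than in retina, and 0 were higher, where 75.4% of 16286 genes were called, 36.6% as higher and 38.8% as lower. The libraries of 5 relatives did not overlap there, nor did those of 79.8% of genes tested. In Abca4Ko mice 3 were lower (Pcsk1, Pcsk2 and Pcsk5) and 1, Mbtps1, was higher, where 64.1% of 16036 genes were called, 30.4% as higher and 33.7% as lower. The libraries of 5 relatives did not overlap, against 69.4% of genes tested. Median log2 differences of the relatives were -0.47 and -0.53, against -0.03 and 0.0042 over all genes. Pcsk1 and Pcsk5 passed the filter through retina alone, so their direction follows from it. The counts and medians above include both genes and so show no direction of the family. Apart from them, Furin, Pcsk2 and Pcsk1n were called lower in control mice, and Pcsk2 alone in Abca4Ko mice.

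The level in rod TRAP as a percent of that in retina gives the same data per gene. Pcsk6 went from 1.56% in control to 103.8% in Abca4Ko mice. Without Abca4Ko replicate 3 the latter was 103.9%. Its 3 control pairs of libraries lay between 1.03% and 2.30%, and its 3 Abca4Ko pairs between 83.2% and 124%. In the Abca4Ko fit its log2 difference between fractions was 0.03 (SE 0.23), against -4.74 (SE 0.21) in controls, and the Abca4Ko value turned negative under other scalings.

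Pcsk2 moved the other way, from 27.3% to 9.16%. Its log2 difference between fractions was -1.77 in control (SE 0.19, limma adjusted p = 2.42e-06) and -3.21 in Abca4Ko mice (SE 0.25, adjusted p = 1.23e-06). Without replicate 3 of both Abca4Ko fractions, and with the filter set to 2 libraries, the latter was -3.16 (limma adjusted p = 4.56e-05). Both fits placed Pcsk2 below its retina level in all libraries.

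The low convertases are best given by counts. Pcsk1 in control rod TRAP had 4.02% of the summed scaled counts of retina (95% exact interval 1.59 to 8.45, counting error only), and 1.49% (0.402 to 3.85) in Abca4Ko mice. Pcsk5 had 2.89% (0.926 to 6.86) and 2.50% (0.995 to 5.21). These intervals take the rescaled counts as reads, and they overlap between genotypes for both genes.

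Furin stood at 67.6% of retina in control and 81.3% in Abca4Ko mice, with a log2 difference of -0.47 (SE 0.12, limma adjusted p = 0.00251) and -0.30 (SE 0.16, adjusted p = 0.132). With the replicate block the latter passed (adjusted p = 0.0470), and without replicate 3 of both Abca4Ko fractions it was -0.34 (adjusted p = 0.249). Pcsk1n stood at 67.0% and 68.3%, with log2 differences of -0.47 (adjusted p = 0.0158) and -0.53 (adjusted p = 0.0939). Without replicate 3 of both Abca4Ko fractions the latter was again -0.53 (adjusted p = 0.0993). The block brought the Abca4Ko value of Pcsk1n to adjusted p = 0.00133, and the control call was lost without control rod TRAP replicate 2 (adjusted p = 0.0717).

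Mbtps1 stood at 107.4% and 129.8% of retina. In Abca4Ko mice the log2 difference was 0.37 (SE 0.14, limma adjusted p = 0.0333, and 0.0182 with the replicate block), but it did not pass without Abca4Ko replicate 3 of rod TRAP (adjusted p = 0.141) or of both fractions (0.32, adjusted p = 0.222). In control mice it was 0.19 (adjusted p = 0.144). Pcsk7 stood at 88.2% and 110.0%, with log2 differences of -0.10 and 0.13 that did not pass (adjusted p = 0.571 and 0.440). These directions depend on scaling, since with the authors' totals alone the median of all genes moved to -0.62 and -0.49, Mbtps1 to -0.46 and -0.16, and Pcsk7 to -0.73 and -0.39.

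Genes of other retinal cell types give a scale for these percentages. In rod TRAP of control and Abca4Ko mice the median marker stood at 228.4% and 226.1% of retina for rods, 4.16% and 3.31% for bipolar cells, 3.45% and 3.40% for Müller glia, 2.87% and 2.98% for amacrine cells and 3.37% and 3.13% for ganglion cells. The cone list had medians of 30.8% over 13 genes in control and 60.3% over 14 genes in Abca4Ko mice (59.4% without replicate 3). In each list only markers with a mean of at least 5 CPM in retina were taken. The interaction called 0 of 14 cone markers by limma, where 0.00579% of all genes were called. Pcsk6 was below all of these medians in control mice, and in Abca4Ko mice it was above those of every list but rods.

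**Figure D4:**
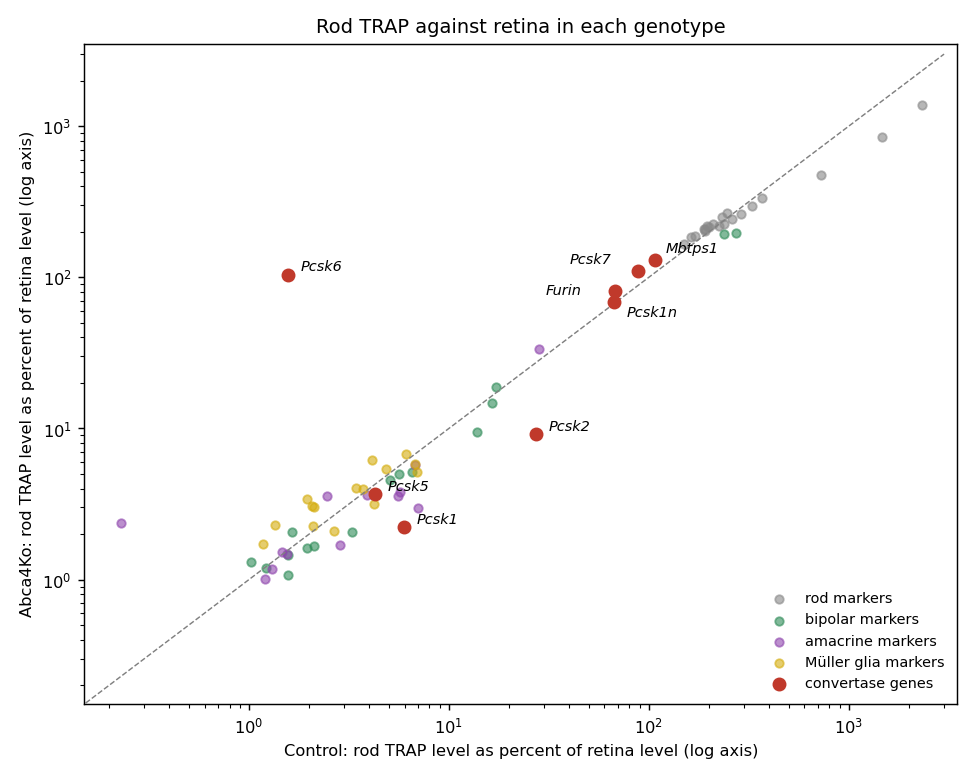
Rod TRAP level as a percent of the retina level (CPM, group means, log axes) in control (x) and Abca4Ko (y) mice; the dashed line marks equal values, large points are the convertase genes and small points markers of 4 cell types. Pcsk6 lies at 1.56% and 103.8%, Pcsk2 at 27.3% and 9.16%, Pcsk1 at 5.97% and 2.22%, and the other 5 convertase genes lie closer to the line.

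Markers of other cells were read beside Pcsk6 in rod TRAP. The bipolar list (16 genes, 14 tested) had 0 called, where 1.09% of all genes were, and its summed level was 694, 778 and 717 CPM in control and 650, 703 and 714 CPM in Abca4Ko rod TRAP. Prkca and Otx2 made up most of that sum, and without them, a choice made after the values were seen, it was 33.0, 40.8 and 38.6 CPM against 23.0, 37.3 and 39.8 CPM. Among defining bipolar markers, Grm6 had 10, 20 and 13 scaled counts in the control rod TRAP libraries, against 5, 10 and 10 in those of Abca4Ko mice.

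The Müller glia (13 tested), amacrine (9 tested) and ganglion cell (12 tested) lists also had 0 called, against the same 1.09%. Amacrine sums were 56.1 to 63.4 CPM in control and 47.6 to 60.3 CPM in Abca4Ko rod TRAP, and ganglion cell sums 67.9 to 76.5 and 71.0 to 90.0 CPM. Müller glia sums were 193 to 223 and 188 to 288 CPM, and Rlbp1 had 305 scaled counts in Abca4Ko replicate 1 against 81 to 115 in the other rod TRAP libraries. Of 14 cone markers 2 rose in Abca4Ko rod TRAP (Gngt2, adjusted p = 0.0213, and Kcne2, adjusted p = 0.0177, both by limma), where 0.717% of all genes did, and Gnb3 gave -0.12 (adjusted p = 0.906). Without Abca4Ko replicate 3, 4 of 14 were called, Arr3 and Opn1mw as well. Cone sums were 827 to 907 CPM in control and 957 to 1047 CPM in Abca4Ko rod TRAP, and their part in the Pcsk6 values was not tested. For Pcsk2 the defining markers Trpm1 (42, 52 and 71 against 15, 37 and 24 scaled counts) and Gad1 (35, 62 and 71 against 28, 51 and 27) also had lower means in Abca4Ko rod TRAP without passing (adjusted p = 0.172 and 0.523), and their part in its fall was not tested.

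Pcsk6 lies on chromosome 7 of the GRCm38 annotation, as does Furin, while Abca4 lies on chromosome 3. The 5 nearest tested genes on either side were Gm7546, BC046251, Tarsl2, Tm2d3 and Gm7551, and Snrpa1, Selenos, Chsy1, Lrrk1 and Asb7. None was called in either fraction. Over all genes tested 1.09% were called in rod TRAP and 0.106% in retina, so the lack of a call among 10 genes says little. Their log2 differences in rod TRAP ran from -0.75 for Lrrk1 (SE 0.24, limma adjusted p = 0.263) to 0.32 for BC046251 (SE 0.20, adjusted p = 0.626). Pcsk6, which unlike these neighbours was chosen by its values, was at 4.14.

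Over the whole of chromosome 7, 28 of 948 tested genes were called in rod TRAP (2.95%). Of genes placed on any chromosome, 134 of 12594 were called (1.06%). The tested genes of both counts include Pcsk6, which was chosen by its values, and the second count includes chromosome 7 itself. In retina the counts were 8 of 1228 (0.651%) and 16 of 16187 (0.0988%). Without Abca4Ko replicate 3 they were 2.35% and 0.940% in rod TRAP and 0.413% and 0.126% in retina. Furin, on the same chromosome, was called in neither. Gm20684, on the opposite strand of Pcsk6, had at most 3 scaled counts in a rod TRAP library and at most 18 in retina, and Gm45213, which overlaps Pcsk6 on the same strand, had 0 in all.

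**Figure D5:**
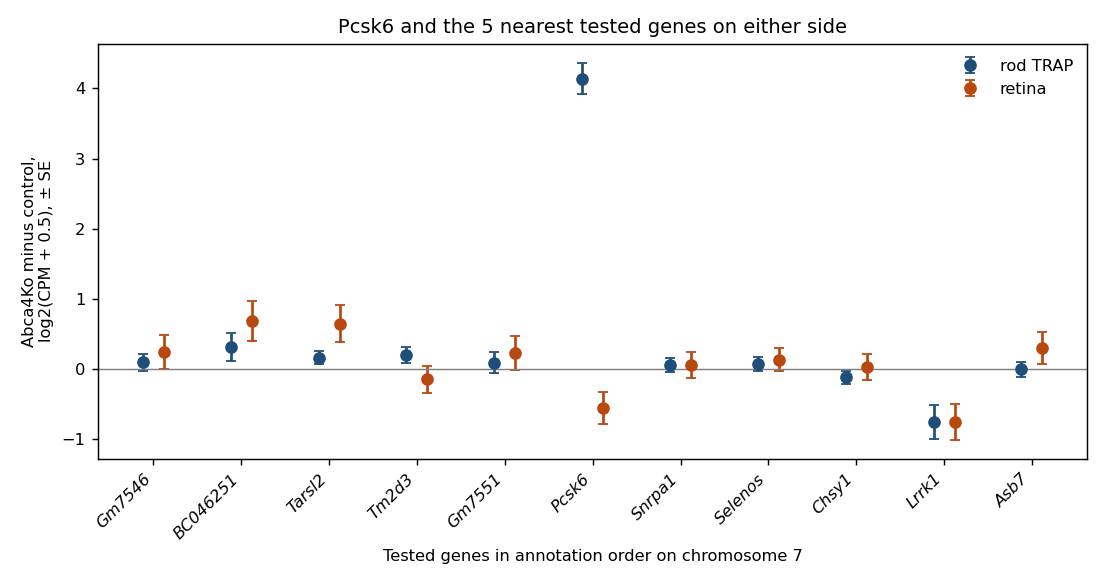
Abca4Ko minus control difference (log2(CPM + 0.5), with moderated SE) for Pcsk6 and the 5 nearest tested genes on either side, in annotation order on chromosome 7, in rod TRAP and in retina. The neighbours lie between -0.75 and 0.32 in rod TRAP, and Pcsk6 at 4.14.

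The genes most like Pcsk6 in pattern over the 12 libraries, by Pearson r of log2 values among 17243 genes, were Syt9 (0.929), Strn4 (0.925), Ldah (0.908), Hyal1 (0.904) and Nav2 (0.896). These points share libraries and fractions, and r is a description. Syt9, Strn4 and Nav2 also lie on chromosome 7, while Ldah lies on chromosome 12 and Hyal1 on chromosome 9. Of genes placed on any chromosome and tested in rod TRAP, 948 of 12594 were on chromosome 7. The genes named here were picked by likeness to Pcsk6, which was itself chosen by its values. Their chromosomes are a description, and a link to chromosome 7 was not tested. For Nav2 the scaled counts were 15, 22 and 22 in rod TRAP of control mice, 73, 101 and 88 in rod TRAP of Abca4Ko mice, and between 228 and 503 in the retina libraries. Among the relatives r was highest for Pcsk5 (0.60), followed by Pcsk1n and Pcsk1 (both 0.56), Furin (0.51), Pcsk7 (0.38), Pcsk2 (0.27) and Mbtps1 (-0.24).

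The wider pathway was read through 8 lists of partners and substrates. In both genotype comparisons and in the interaction, 0 members of any list were called by limma. Over all genes the shares called were 1.09% (rod TRAP), 0.106% (retina) and 0.00579% (interaction, Pcsk6 alone), so that 0 in lists this short says little. Pcsk4, another family member, was tested in rod TRAP (log2 difference 0.07, adjusted p = 0.923). Scg5, the chaperone 7B2 that PCSK2 needs to mature, was at 370.1 TPM in control retina and differed by -0.09 in rod TRAP (SE 0.08, adjusted p = 0.746). The inhibitor Gbp2 was at 2.53 TPM in control retina and was not tested in rod TRAP.

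Of the prohormone processing and granule genes, 12 of 16 passed the filter in rod TRAP, and in retina 16 did. Cpe, the carboxypeptidase that trims what the convertases release, was at 1323 TPM in control retina and differed by -0.04 in rod TRAP (SE 0.10, limma adjusted p = 0.929), and Chga by 0.05 (adjusted p = 0.886). Of 15 neuropeptide precursors, 3 passed the filter in rod TRAP, and in retina 13 did. The leading ones, Cartpt and Penk, were at 191.7 and 178 TPM in control retina and stood at 1.17% and 1.75% of that level, as CPM, in control rod TRAP.

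Of 16 TGF-beta family ligands, among them substrates of PCSK6, 4 passed the filter in rod TRAP, and in retina 13 did. Tgfb3 and Tgfb2 were at 13.1 and 12.6 TPM in control retina, with log2 differences between genotypes in rod TRAP of -0.04 and -0.32 (limma adjusted p = 0.971 and 0.644). Of 36 other furin-type substrates, 20 were tested in rod TRAP, Atp6ap1 (0.11, adjusted p = 0.775) and Atp6ap2 (-0.05, adjusted p = 0.895) being the highest by TPM.

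Of 15 substrates and partners of the site-1 protease, 12 were tested in rod TRAP. Scap, which escorts SREBP to the Golgi, differed by 0.07 (SE 0.08, limma adjusted p = 0.804) and Srebf1 by 0.06 (SE 0.09, adjusted p = 0.866).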

How the data were processed

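Both tables of the series were used, each with 1 column for each of 12 libraries. Scaled counts are a score that the authors deposited: counts of a library were brought to one total per fraction and rounded, so they are not raw counts. TPM, a transcript share corrected for length, was deposited by the authors to 1 decimal. The submitters' processing notes name CASAVA 1.8.2, HISAT2, DESeq2, edgeR and the build GRCm39, with no model or strand setting. Libraries were made with a low-input kit from 5 ng (lysate) or 10 ng (TRAP) of RNA.

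The members, lists and tests were chosen with earlier results of these data known. Scaled counts were rescaled by trimmed means (trims 0.3 and 0.05) and tested as log2(CPM + 0.5), which understates changes of low genes, with limma 3.58.1 (trend, robust) in R 4.3.3 over every gene with at least 10 scaled counts in at least 3 libraries, two-sided, with Benjamini-Hochberg adjustment over all genes. Genotype comparisons used 6 libraries each, and the interaction all 12. Overlap of groups was judged on CPM. It was judged again on the scaled counts after the CPM result had been seen. The procedure was tested on simulated data. Named genes were all members, Abca4, the 2 highest members of each list by TPM in control retina, any list gene called between genotypes, 5 neighbours on either side of Pcsk6, the 5 genes most alike and the defining cell markers. Some of the named genes are not reported here.

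Deviations of same-numbered rod TRAP and retina libraries correlated at 0.232 to 0.435 in control and 0.272 to 0.558 in Abca4Ko mice (10961 genes), so the numbers were taken to pair the fractions. Between genotypes they did not pair (-0.523 to 0.019). No libraries were duplicates. Annotation and start regions are of GRCm38, not the build of the files, and were used for names, order and sequence only. Other steps used Python 3.11.15.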

Additional observations from a re-analysis of the deposited data

How the results depend on the processing

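Of the recomputed log2 differences, 556 kept their direction and side of the threshold, 24 reversed, 11 became calls, 13 lost the call and 10 moved. In rod TRAP the count of relatives changed between genotypes was 1, and 0 on log2(TPM + 1); leaving out 1 library gave 0 to 2, and 2 without Abca4Ko replicate 3 with the filter set to 2 libraries, an alternative added after the data were seen, as was leaving out replicate 3 of both Abca4Ko fractions. Leaving out 1 library gave 3 to 5 for fractions in control and 1 to 5 in Abca4Ko mice, where without a retina library Pcsk1 and Pcsk5 no longer passed a filter of 3 libraries. In retina and in the interaction every alternative gave 0.

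With the authors' scaling alone, the log2 difference between fractions was -0.46 (control) and -0.16 (Abca4Ko) for Mbtps1, and in Abca4Ko mice -0.49 for Pcsk6 and -0.39 for Pcsk7. On log2(TPM + 1) it was -0.17 for Mbtps1 in control and -0.14 for Pcsk6 and -0.12 for Pcsk7 in Abca4Ko mice, and the genotype difference of Furin in rod TRAP was -0.026 (-0.0061 with 12 libraries in one fit). Median-ratio size factors gave -0.064 for Pcsk6 between fractions in Abca4Ko mice and -0.023 for the Pcsk1n interaction. Higher and lower calls over all genes were 5968 and 6317 in control and 4868 and 5408 in Abca4Ko mice, and 3415 and 9549, and 2282 and 7814, with the authors' scaling alone. The cause was not tested.

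Leaving out 1 library gave -0.053 to 0.12 for Furin between genotypes in rod TRAP, -0.29 to 0.11 for Pcsk2 in retina (0.11 without Abca4Ko replicate 1), -0.26 to 0.0096 for Pcsk7 between fractions in control, -0.13 to 0.26 for Pcsk6 between fractions in Abca4Ko mice and -0.19 to 0.25 for the Pcsk1n interaction. The Mbtps1 call between fractions in Abca4Ko mice was lost without 5 of 6 libraries.

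With the replicate block, the relatives called numbered 1 (genotype, rod TRAP), 0 (retina), 5 (fractions, control), 6 (fractions, Abca4Ko) and 0 (interaction); apart from Furin and Pcsk1n between fractions in Abca4Ko mice, it changed no call. The number of libraries, 3 a group, limits the precision, and rounding of scaled counts limits Pcsk1, Pcsk5 and control rod TRAP Pcsk6.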
